A study of Mus musculus with 34 samples.

Results

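Fibroblasts of the mesentery were compared with fibroblasts of the epididymal fat pad in mice, using 6 of the 34 libraries of the series. The members are the 3 libraries titled as mesentery fibroblasts and the 3 titled as epididymal adipose fibroblasts, and every gene with a count was considered. Both groups hold polyadenylated RNA of cells sorted from digested tissue as podoplanin-positive and PDGFRA-positive after exclusion of CD45, CD31 and Epcam. Both are labelled as visceral fat and as GFP-negative. The labels used here give no strain, genotype, treatment, age or sex, and do not say what GFP would have marked. Nor do they tie a library to an animal, so each p-value reflects spread among libraries that may be partly technical. The series asks how the transcription of stromal cells depends on the tissue they live in. Its other libraries are fibroblasts of 7 further tissues and mesothelial cells of the omentum, mesentery and epididymal fat.

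The mesentery suspends the intestine and carries its vessels, lymphatics and nerves through fat, whereas the epididymal fat pad lies against the epididymis and testis. In the embryo, mesenchyme around the gut tube receives Hedgehog ligands from the endoderm and expresses regional transcription factors such as Foxf1, Nkx2-3 and Hand2. Fibroblasts of fat include cells that can become adipocytes, an adventitial population marked by Dpp4 and Pi16, and a population marked by tissue factor (Cd142, encoded by F3) that was described in mouse fat as restraining adipocyte formation.

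Total counts were 41.1, 29.4 and 32.7 M in the mesentery libraries and 28.8, 34.6 and 31.6 M in the epididymal libraries. Levels are given as CPM, the gene's counts relative to the scaled total of its library. Pdgfra, the receptor used for the sort, stood at 978, 1356 and 1250 CPM in mesentery libraries 1 to 3, against 1020, 1034 and 1147 CPM in epididymal libraries 1 to 3. Ptprc, which encodes CD45, averaged 0.149 CPM in mesentery and 1.27 CPM in epididymal libraries. The corresponding means were 11.4 and 19.8 CPM for Pecam1 (CD31), and 0.0685 and 0.0625 CPM for Epcam. Pdpn, the other sort marker, had 214, 228 and 235 CPM in mesentery and 312, 318 and 317 CPM in epididymal libraries, without overlap (log2 fold change -0.48, SE 0.25, adjusted p = 0.497). No sort marker was called of 5 tested with edgeR, and DESeq2 called 0. An unadjusted p under 0.05 in edgeR was found for 1 of them, against 2788 of all 25705 genes tested. Likewise 0 of 8 fibroblast identity genes, among them Col1a1, Dcn and Dpt, were called, with 1 at an unadjusted p under 0.05 and 0 called by DESeq2. Their summed level was 39200 to 43300 CPM in mesentery and 42700 to 45400 CPM in epididymal libraries, so that both groups carried the labelled cell type's genes. The Y-linked Ddx3y was present in all 6 libraries, at 126 to 154 CPM in mesentery and 115 to 164 CPM in epididymal fibroblasts.

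Markers of other cell types were present in unequal amounts. The summed level of 22 pancreatic acinar genes, which encode digestive enzymes, was 4740, 1100 and 1500 CPM in mesentery libraries 1 to 3, against 3.54, 3.90 and 4.75 CPM in epididymal libraries 1 to 3. Summed epididymis, skeletal muscle and epithelial genes ran the other way, without overlap of the groups. Epididymis and testis genes summed to 5.17 to 6.83 CPM in mesentery and 13.1 to 21.9 CPM in epididymal fibroblasts. Of 16 such markers 6 were at 0 in mesentery and 2 in epididymal libraries, and 3 of 9 tested were lower in mesentery, or 1 without mesentery library 2 or epididymal library 2. Skeletal muscle genes were 8.44 to 9.43 and 12.3 to 17.9 CPM in mesentery and epididymal libraries, with Myh1 at 0 in mesentery, and epithelial genes 3.33 to 5.66 and 6.14 to 7.86 CPM, with 3 of 10 at 0 in mesentery and Epcam near 0 in both. Schwann cell genes summed higher in mesentery, at 16 to 20.3 CPM against 9.33 to 11.2 CPM in epididymal fibroblasts, and 2 of 9 were at 0 in each group. Sums of the remaining lists overlapped or were low. Mesothelial genes summed to 2420 to 2980 CPM in mesentery and 2850 to 3290 CPM in epididymal libraries, blood endothelial genes to 299 to 445 and 399 to 536 CPM, leukocyte genes to 21.2 to 55.3 and 47.2 to 119 CPM, and adipocyte genes to 5.30 to 9.41 and 8.13 to 14.1 CPM. Single genes made up most of the first of these sums: Efemp1 alone had 2140 to 2470 CPM in mesentery and 2720 to 2920 CPM in epididymal libraries of the mesothelial sum, and Tek 228 to 361 and 342 to 444 CPM of the endothelial sum. Endothelial Cdh5 averaged 2.23 CPM in mesentery and 6.18 CPM in epididymal libraries, and Cldn5 1.47 and 6.10 CPM. Of 16 mesothelial markers tested with edgeR, 1 was called. This was Cldn15, lower in mesentery at 16.8 CPM against 82.2 CPM in epididymal libraries (log2 fold change -2.29, adjusted p = 1.92e-06). In such bulk samples a smaller share of cells with a transcript and less of it per cell cannot be told apart. The part of these cells in the results below was not tested, apart from the values given for acinar RNA.

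Of 25705 genes tested, 661 (2.57%) were called, meaning that they differed by 1 or more on the log2 scale with a Benjamini-Hochberg adjusted p under 0.05 in edgeR's quasi-likelihood test. Mesentery fibroblasts were higher for 310 genes (1.21%) and lower for 351 genes (1.37%). The libraries of the groups did not overlap for 644 of the called genes, and for 18.9% of all genes tested. An unadjusted p under 0.05 in the same test was found for 2788 of the 25705 genes. Over all genes tested, the log2 fold change had a median of 0.030. The number called ranged from 457 without epididymal library 2 to 680 without mesentery library 3, and the number higher in mesentery was 202 without epididymal library 2.

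**Figure D1:**
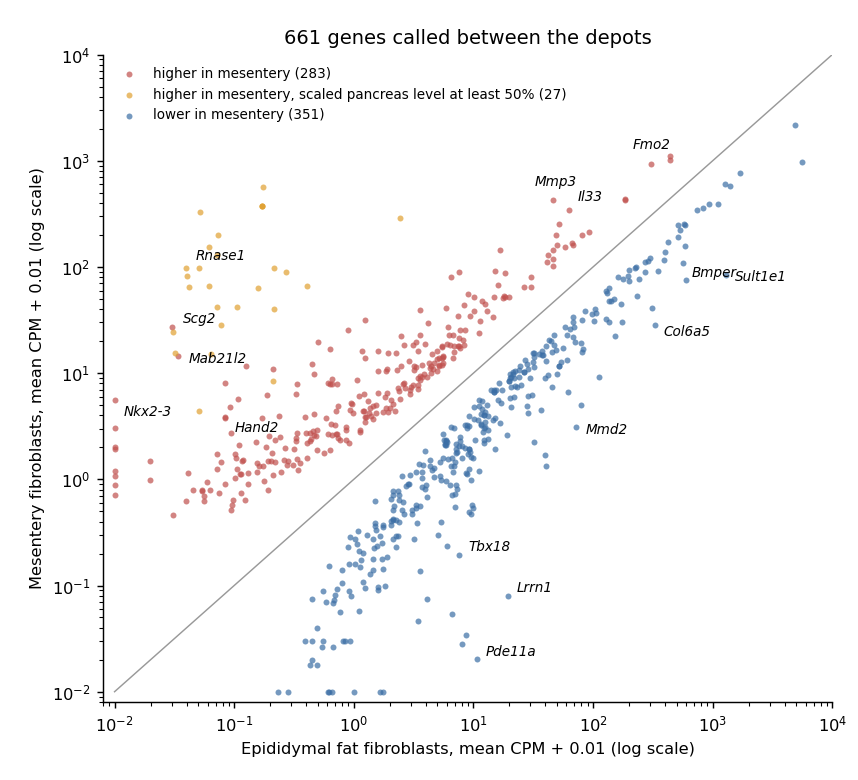
Mean level of the 661 called genes in mesentery fibroblasts (vertical axis) and in epididymal fat fibroblasts (horizontal axis), both as CPM + 0.01 on log scales, with 3 libraries a group; the line marks equal levels. Red points are 283 genes higher in mesentery, orange points 27 higher genes for which a pancreas library scaled to the same acinar sum gives at least 50% of the mesentery level, and blue points 351 genes lower in mesentery; most orange points lie at the upper left, under 1 CPM in epididymal cells.

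Genes of the exocrine pancreas were the group furthest above the epididymal level. Of 22 acinar markers tested, 19 were called higher in mesentery, and 9, 8 and 10 were called without epididymal library 1, 2 and 3. To give the size of this component, replicate 2 of the pancreas fibroblasts, which held the most acinar RNA in the series, was scaled to the acinar sum of each mesentery library. At that scale it gave at least 50% of the mesentery level for 27 of the 310 higher genes, leaving 283. Among the 12 largest increases outside the marker lists, at 10 CPM or more in mesentery and without overlap of the groups, this applied to Rnase1, a secreted ribonuclease, to Amy2a2, Amy2a3 and Amy2a4, pancreatic amylases, and to Pdia2, Klk1 and Ctrl, a pancreatic disulfide isomerase, a kallikrein and a chymotrypsin-like protease. Rnase1 stood at 206, 34.3 and 55.5 CPM in mesentery libraries 1 to 3, against 0, 0.0891 and 0 CPM in epididymal libraries 1 to 3, and the scaled pancreas library gave 114% of the mesentery mean. The amylase copies had 762, 118 and 251 CPM each in mesentery libraries, against 0.212, 0.0891 and 0.185 CPM in epididymal libraries. They are near-identical and their equal values cannot be told apart by gene. Library 1 was the highest of the mesentery libraries for these genes. The calls of some of them rested on single libraries: the adjusted p was 0.0523 for the amylases without epididymal library 2, 0.0598 and 0.054 for Ctrl without epididymal library 1 and 3, 0.0715 to 0.0818 for Pdia2 without mesentery library 1 or any epididymal library, and 0.122 to 0.179 for Klk1 without those same libraries.

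Other genes among those 12 were not pancreatic by this measure. Scg2, a granin of secretory granules and the precursor of secretoneurin, had 19.96, 42.5 and 19.3 CPM in mesentery libraries 1 to 3, against 0, 0.0297 and 0.0309 CPM in epididymal libraries 1 to 3. On 2 counts in the epididymal libraries the ratio was 1260, with a 95% interval of 349 to 10400 that covers counting error only. Mab21l2, a developmental regulator needed in the mouse for closure of the ventral body wall, had 14.8, 13.4 and 15.7 CPM in mesentery and 0.0708, 0 and 0 CPM in epididymal libraries, a ratio of 691 with an interval of 191 to 5710. Absence of overlap was a condition for naming both genes. Chodl, a membrane lectin, averaged 10.99 ± 5.43 CPM in mesentery and 0.201 ± 0.202 CPM in epididymal libraries (SD, n = 3 each), a log2 fold change of 5.81 with a standard error of 0.79 and an adjusted p of 2.04e-05. Shisa3, which restrains Wnt and FGF receptors, averaged 19.8 ± 7.57 and 0.490 ± 0.365 CPM in mesentery and epididymal libraries, a log2 fold change of 5.29 (SE 0.64, adjusted p = 1.2e-06). For Scg2, Mab21l2, Chodl and Shisa3 the scaled pancreas library gave 0.0919%, 0.0393%, 0.639% and 0.114% of the mesentery level.

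Several receptors and enzymes followed among the higher genes. They were chosen after their values were seen, as the largest changes without overlap of the groups once the pancreatic genes were set aside. Lepr, the leptin receptor, stood at 42.5, 32.3 and 19.7 CPM in mesentery libraries 1 to 3, against 0.814, 1.16 and 1.70 CPM in epididymal libraries 1 to 3, a log2 fold change of 4.67 (SE 0.32, adjusted p = 4.19e-11). Iyd, the iodotyrosine deiodinase, averaged 25.3 ± 6.05 CPM in mesentery and 0.889 ± 0.794 CPM in epididymal libraries. The mechanically gated channel Piezo2 averaged 16.9 ± 4.51 and 0.622 ± 0.477 CPM, the phosphate-regulating peptidase Phex 16.1 ± 3.83 and 1.17 ± 0.597 CPM, and the ephrin receptor Epha3 80.0 ± 17.4 and 6.46 ± 2.95 CPM, mesentery first in each pair. Their log2 fold changes were 4.78 for Iyd, 4.73 for Piezo2, 3.76 for Phex and 3.62 for Epha3, with adjusted p-values of 6.41e-08, 1.06e-09, 1.97e-08 and 3.21e-08. The cAMP phosphodiesterase Pde4b varied more, at 126, 53.9 and 92.1 CPM in mesentery and 10.8, 3.65 and 8.28 CPM in epididymal libraries. Its log2 fold change was 3.58 (SE 0.60, adjusted p = 0.000403). Abcc9 and Kcnj8, the subunits of a potassium channel typical of pericytes, were also higher. Abcc9 stood at 40.7, 51.8 and 32.0 CPM in mesentery libraries and 5.88, 3.21 and 8.53 CPM in epididymal libraries (log2 fold change 2.82, SE 0.28, adjusted p = 1.62e-08). The mural list as a whole did not move with them: its sum was 121 to 234 CPM in mesentery and 145 to 212 CPM in epididymal libraries, with 2 of 13 members higher and 2 lower, Lmod1 and Notch3. The call of Notch3 was lost without mesentery library 3 or epididymal library 2.

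Genes lower in mesentery were led by enzymes and surface proteins. Sult1e1, the oestrogen sulfotransferase, was the most abundant of the 12 leading lower genes, at 80.5, 70.2 and 98.8 CPM in mesentery libraries 1 to 3, against 1335, 1280 and 1273 CPM in epididymal libraries 1 to 3. Its log2 fold change was -3.96 (SE 0.42, adjusted p = 1.72e-07). Pde11a, a phosphodiesterase of both cAMP and cGMP, had 1 count in all in mesentery and 10.05, 11.9 and 10.01 CPM in epididymal libraries, an epididymal-to-mesentery ratio of 1160 with a counting interval of 207 to 45700. Lrrn1, a leucine-rich repeat membrane protein, averaged 0.0697 ± 0.0747 CPM in mesentery and 19.3 ± 3.59 CPM in epididymal libraries (log2 fold change -8.13, SE 0.83, adjusted p = 6.61e-09). Mmd2, a membrane protein of the progestin and adipoQ receptor family, stood at 4.10, 3.39 and 1.79 CPM in mesentery and 56.0, 79.9 and 81.6 CPM in epididymal libraries. These 4 genes, too, were named on condition that the groups did not overlap.

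Nt5e, the CD73 ectoenzyme that makes adenosine, was lower in mesentery at 10.8, 9.92 and 6.86 CPM, against 95.8, 114 and 126 CPM in epididymal libraries (log2 fold change -3.60, SE 0.28, adjusted p = 1.72e-10). Enpp6, a choline phosphodiesterase, averaged 1.33 ± 0.781 CPM in mesentery and 40.2 ± 8.43 CPM in epididymal libraries, and Amph, an endocytic adaptor, 1.69 ± 0.540 and 39.5 ± 6.18 CPM. Cnmd, the angiogenesis inhibitor chondromodulin, averaged 2.25 ± 0.599 and 32.2 ± 2.46 CPM, and Adam23, an integrin-binding protein without protease activity, 4.47 ± 1.52 and 36.4 ± 2.71 CPM, again mesentery first. Slc38a5, a glutamine transporter, had 1.93, 0.921 and 0.698 CPM in mesentery and 4.85, 18.2 and 10.1 CPM in epididymal libraries (log2 fold change -3.19, SE 0.51, adjusted p = 0.000106). Amy1, the salivary-type amylase, ran against the pancreatic amylases, with 5.04, 4.84 and 5.22 CPM in mesentery libraries and 71.3, 79.2 and 88.6 CPM in epididymal libraries (log2 fold change -3.98, SE 0.36, adjusted p = 4.3e-09). Its reads can be shared with the pancreatic copies, so the mesentery level is uncertain in the direction of being too high. The scaled pancreas library gave 9.58% of the mesentery level of Amy1, and the sharing of reads was not tested.

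**Figure D2:**
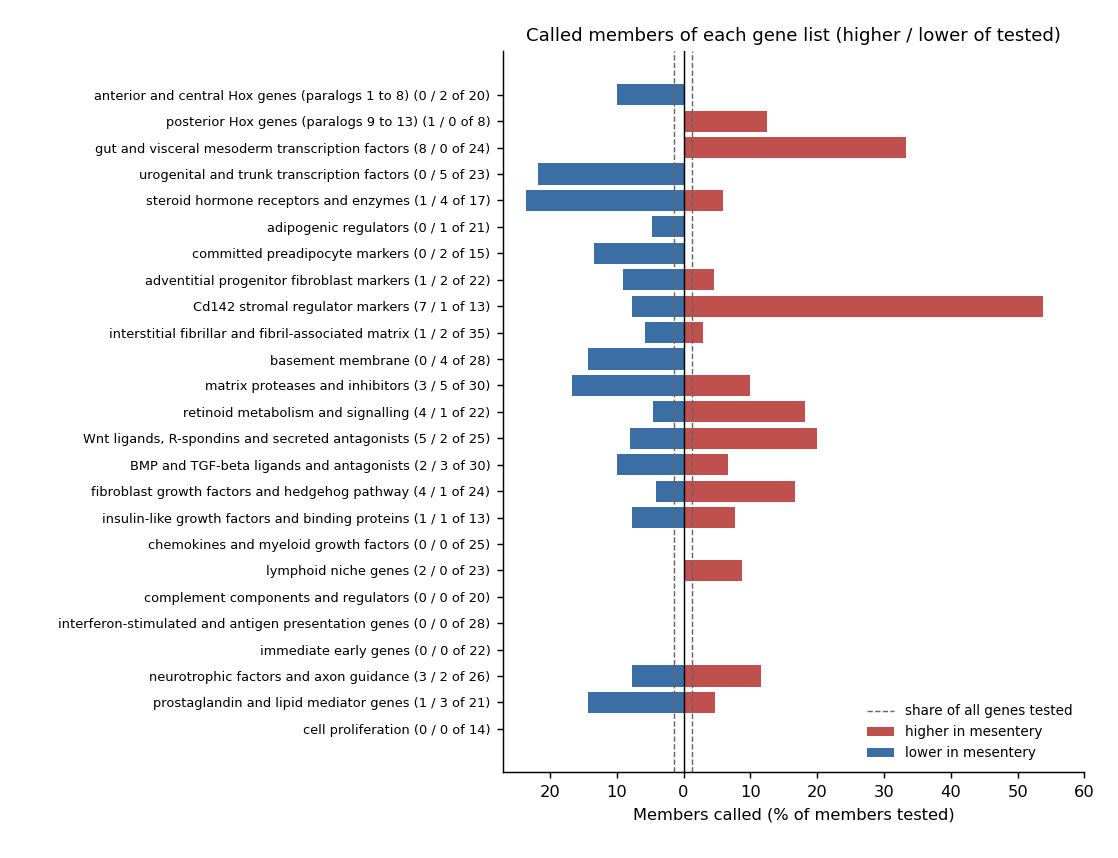
Share of the tested members of each gene list that were called higher (red, to the right) or lower (blue, to the left) in mesentery fibroblasts, in percent, with the counts of higher and lower members of those tested beside each name. Dashed lines mark the share of all genes tested that were called, 1.21% higher and 1.37% lower; the Cd142 list (7 of 13) and the gut and visceral mesoderm factors (8 of 24) reach furthest to the right.

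Transcription factors of the gut and visceral mesoderm were higher in mesentery or not called. Of 24 tested, 8 were called higher and 0 lower, against 1.21% and 1.37% of all genes, and the list's median log2 fold change was 0.84. The same shares of all genes are the background for each list count below. Nkx2-3, a homeodomain factor required for development of the spleen and the intestinal mesenchyme in the mouse, had 6.13, 3.95 and 6.77 CPM in mesentery libraries 1 to 3 and no count in any epididymal library. Against a floor of 3 counts over the epididymal libraries it was at least 176-fold higher (adjusted p = 9.24e-08). Hand2, a basic helix-loop-helix factor of heart, limb and gut mesenchyme, had 4.75, 2.94 and 3.70 CPM in mesentery, against 0.0708, 0.0594 and 0.0927 CPM in epididymal libraries (log2 fold change 5.61, SE 0.53, adjusted p = 1.47e-09). Foxf1, a forkhead factor induced by Hedgehog in visceral mesoderm, had 3.69, 3.21 and 4.31 CPM in mesentery, against 0.177, 0.149 and 0.154 CPM in epididymal libraries (log2 fold change 4.52, SE 0.50, adjusted p = 5.87e-08). Groups without overlap were a condition for list members to be named by rule, so the separation of these genes adds no support. The long noncoding transcripts beside them moved the same way: Hand2os1, whose annotated span covers much of Hand2 on the other strand, averaged 11.8 ± 2.42 and 0.115 ± 0.149 CPM in mesentery and epididymal libraries, and Fendrr, next to Foxf1, was at least 33.2-fold higher. Whether the counting used strand is not given in the sources used here, so Hand2 (chr8:57320983-57324633, plus strand) and Hand2os1 (chr8:57281117-57324233, minus strand) may share reads.

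Gli1, a transcription factor and target of Hedgehog signalling, was called with 6.44, 4.22 and 4.13 CPM in mesentery and 0.531, 0.862 and 0.773 CPM in epididymal libraries (log2 fold change 2.76, SE 0.41, adjusted p = 3.13e-05). The other four called members were at low levels. Hand1, the paralogue of Hand2, averaged 0.696 CPM in mesentery with no epididymal count, at least 21.9-fold higher, and DESeq2 did not call it (adjusted p = 0.682). Isl1, a LIM homeodomain factor, had 2.46, 2.32 and 3.10 CPM in mesentery, against 1.17, 0.0594 and 0.711 CPM in epididymal libraries, and its adjusted p was 0.106 without epididymal library 2. Hlx, a homeobox gene of gut and liver mesenchyme, had 1.21, 0.743 and 1.40 CPM against 0, 0.119 and 0.185 CPM, and its adjusted p was 0.0677 without epididymal library 1 and 0.0544 without epididymal library 2. Prdm6, a regulator of smooth muscle genes, had 1.28, 0.951 and 0.546 CPM against 0, 0.149 and 0 CPM, and its adjusted p was 0.137 and 0.0555 without mesentery library 1 and 2, and 0.133 and 0.144 without epididymal library 1 and 3; DESeq2 did not call it (adjusted p = 0.0672). Called or not, 14 of the 24 members had groups without overlap, against 18.9% of all genes tested. Gata6, a zinc finger factor of visceral mesoderm, overlapped and was not called; it stood at 21.8, 26.6 and 20.4 CPM in mesentery and 15.97, 21.6 and 24.1 CPM in epididymal libraries (log2 fold change 0.16, SE 0.29, adjusted p = 0.956). Scaled to the acinar sums, the pancreas library gave 0.556% of the mesentery level of Nkx2-3, 1.40% of Hand2, 0.319% of Foxf1 and 1.08% of Gli1. This scale follows acinar RNA and gives no measure of pancreas fibroblasts among the sorted cells.

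**Figure D3:**
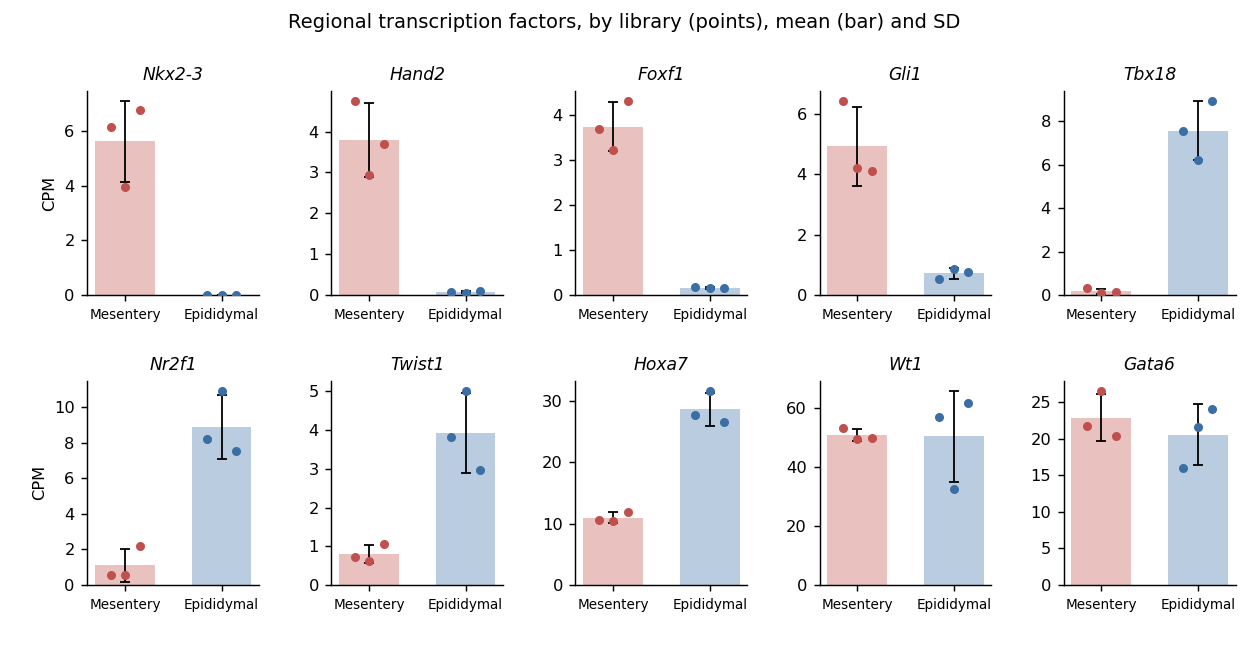
Level of 10 regional transcription factors in CPM, with mesentery fibroblasts left (red) and epididymal fat fibroblasts right (blue); points are libraries, bars means and whiskers SD, with 3 libraries a group and an axis of its own for each gene. Nkx2-3, Hand2, Foxf1 and Gli1 are higher in every mesentery library, Tbx18, Nr2f1, Twist1 and Hoxa7 are lower in every mesentery library, and the groups overlap for Wt1 and Gata6.

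The opposite list, of urogenital and trunk transcription factors, held 5 members lower in mesentery and 0 higher of 23 tested. The shares of all genes were 1.37% and 1.21%. The list's median was -0.28, and DESeq2 called 1 member higher. Tbx18, a T-box factor of ureter and epicardial mesenchyme, had 0.314, 0.119 and 0.121 CPM in mesentery libraries 1 to 3, against 7.54, 6.21 and 8.93 CPM in epididymal libraries 1 to 3 (log2 fold change -5.26, SE 0.47, adjusted p = 2.11e-09). Tbx18 was named under the same condition of no overlap. Nr2f1, an orphan nuclear receptor, had 0.579, 0.564 and 2.18 CPM in mesentery and 8.21, 10.9 and 7.54 CPM in epididymal libraries (log2 fold change -3.03, SE 0.40, adjusted p = 4.59e-06). Twist1, a mesenchymal helix-loop-helix factor, averaged 0.803 ± 0.230 and 3.94 ± 1.03 CPM in mesentery and epididymal libraries (log2 fold change -2.30, SE 0.41, adjusted p = 0.000424). Emx2, required for the urogenital tract in the mouse, had no count in mesentery and 0.779, 0.505 and 0.525 CPM in epididymal libraries, at least 21.7-fold lower. Wt1, the Wilms tumour factor of mesothelium and gonadal mesenchyme, did not differ in mean, at 53.4, 49.3 and 49.9 CPM in mesentery and 56.9, 32.7 and 61.6 CPM in epididymal libraries (log2 fold change 0.01, SE 0.30), and its sign changed with the processing.

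Hox genes record position along the body axis. Of 20 members of paralogue groups 1 to 8, 2 were lower in mesentery and 0 higher, against 1.37% and 1.21% of all genes. The median log2 fold change of these members was 0.32. Called or not, 11 of the 20 had groups without overlap, against 18.9% of all genes tested. Hoxa7 had 10.6, 10.4 and 11.96 CPM in mesentery libraries 1 to 3, against 27.7, 31.7 and 26.6 CPM in epididymal libraries 1 to 3 (log2 fold change -1.38, SE 0.29, adjusted p = 0.00294). Hoxc8 averaged 10.4 ± 1.57 and 22.2 ± 1.47 CPM, a log2 fold change of -1.08 (SE 0.27, adjusted p = 0.018). Its adjusted p was 0.131 and 0.0503 without mesentery library 2 and 3, and 0.0741 and 0.0687 without epididymal library 2 and 3. The 8 members of groups 9 to 13 had a median log2 fold change of -0.49, and the lowest, at -3.27, was not called. Of these 8, 4 had groups without overlap and 1 was called. This was Hoxa10, which was higher, at 1.62, 1.37 and 1.43 CPM in mesentery and 0.248, 0.238 and 0.0618 CPM in epididymal libraries (log2 fold change 3.005, SE 0.65, adjusted p = 0.00327). The libraries of the groups did not overlap for these 3 Hox genes, which was a condition for naming them.

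Genes of the Hedgehog and BMP pathways differed at several steps. Besides Gli1, the Hedgehog-binding antagonist Hhip and the receptor Ptch1, both targets of the pathway in mouse mesenchyme, were higher. Hhip had 14.3, 11.8 and 8.92 CPM in mesentery libraries 1 to 3, against 1.84, 5.23 and 2.53 CPM in epididymal libraries 1 to 3 (log2 fold change 1.86, SE 0.38, adjusted p = 0.00231). Ptch1 had 15.1, 18.95 and 17.3 CPM in mesentery, against 7.05, 7.07 and 8.81 CPM in epididymal libraries (log2 fold change 1.16, SE 0.29, adjusted p = 0.0187). Its adjusted p was 0.0861 without mesentery library 2, and 0.101 and 0.108 without epididymal library 1 and 2. Of the 24 tested members of the FGF and Hedgehog list, 4 were higher and 1 lower, against 1.21% and 1.37% of all genes. Without epididymal library 1, 2 members were higher. The fourth higher member, the ligand Fgf9, had 4.18, 4.13 and 3.19 CPM in mesentery and 0.708, 1.90 and 1.17 CPM in epididymal libraries, and its adjusted p was 0.0737 without epididymal library 1. The lower member was Fgf10, a mesenchymal ligand that acts on epithelium and preadipocytes, at 7.94, 10.8 and 10.6 CPM in mesentery and 50.1, 49.0 and 52.1 CPM in epididymal libraries (log2 fold change -2.37, SE 0.32, adjusted p = 8.67e-06).

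Of 30 BMP and TGF-beta ligands and antagonists tested, 2 were higher and 3 lower in mesentery, against 1.21% and 1.37% of all genes. The higher ones included Grem1, which encodes the BMP antagonist gremlin. Grem1 had 6.47, 2.94 and 2.09 CPM in mesentery libraries 1 to 3, against 0.0708, 0.0891 and 0.0618 CPM in epididymal libraries 1 to 3 (log2 fold change 5.64, SE 0.56, adjusted p = 1.52e-09). Mesentery library 1 was the highest, and absence of overlap was a condition for naming the gene. Bmper, a secreted BMP-binding modulator, ran the other way, with 108, 117 and 105 CPM in mesentery and 522, 522 and 647 CPM in epididymal libraries (log2 fold change -2.36, SE 0.41, adjusted p = 0.000506). Inhbb, the activin B subunit, averaged 3.31 ± 1.10 and 11.6 ± 3.42 CPM in mesentery and epididymal libraries, a log2 fold change of -1.82 (SE 0.35, adjusted p = 0.00107). The ligand Bmp5 averaged 2.12 and 7.11 CPM, and its adjusted p was 0.0685 and 0.11 without mesentery library 2 and 3, and 0.0522 and 0.13 without epididymal library 1 and 3.

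The promoters of 3 of these genes show the sequence at the start of a factor and a BMP antagonist that were higher in mesentery and of a factor that was lower. They were taken from RefSeq on GRCm38.p6 and run from 250 bases before to 50 bases after the annotated start. The windows are chr19:43612075-43612374 on the plus strand for Nkx2-3, chr2:113758599-113758898 on the minus strand for Grem1, and chr9:87731211-87731510 on the minus strand for Tbx18. Capitals mark CCACCCA, the core of the GLI recognition sequence, on either strand, which 9.3% of the 32851 RefSeq windows of this length hold.
Nkx2-3: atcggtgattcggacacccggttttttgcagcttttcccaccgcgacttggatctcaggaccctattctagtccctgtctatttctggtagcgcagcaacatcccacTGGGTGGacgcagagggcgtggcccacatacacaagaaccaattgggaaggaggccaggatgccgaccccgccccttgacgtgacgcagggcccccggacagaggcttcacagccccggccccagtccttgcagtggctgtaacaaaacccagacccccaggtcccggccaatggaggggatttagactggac
Grem1: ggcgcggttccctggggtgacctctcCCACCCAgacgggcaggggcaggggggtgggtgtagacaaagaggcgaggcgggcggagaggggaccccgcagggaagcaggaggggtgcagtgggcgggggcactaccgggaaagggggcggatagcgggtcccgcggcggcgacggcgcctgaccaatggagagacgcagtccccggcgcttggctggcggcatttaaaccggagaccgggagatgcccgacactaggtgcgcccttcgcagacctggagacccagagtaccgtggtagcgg
Tbx18: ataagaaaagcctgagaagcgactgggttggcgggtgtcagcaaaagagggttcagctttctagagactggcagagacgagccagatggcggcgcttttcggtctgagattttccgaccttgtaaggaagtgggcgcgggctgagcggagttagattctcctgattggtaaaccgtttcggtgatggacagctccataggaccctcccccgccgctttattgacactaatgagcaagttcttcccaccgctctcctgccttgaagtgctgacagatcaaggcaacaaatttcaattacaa
The windows of Nkx2-3 and Grem1 held 1 match each and that of Tbx18 none, and the windows of Ptch1 and Hhip held none. Over the window, G and C made up 60% of Nkx2-3, 70.7% of Grem1 and 51.7% of Tbx18. A match describes these letters only and shows no binding.

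Wnt genes were higher more often than lower, with 5 higher and 2 lower of 25 tested and a median of 0.51. The shares of all genes were 1.21% higher and 1.37% lower. Without mesentery library 1, 1 Wnt gene was lower, as the call of the R-spondin Rspo2 was lost. The ligand Wnt5a, which acts outside the beta-catenin branch, had 144, 174 and 165 CPM in mesentery libraries 1 to 3, against 58.4, 76.7 and 69.9 CPM in epididymal libraries 1 to 3 (log2 fold change 1.23, SE 0.22, adjusted p = 0.000315). Wnt2b, a beta-catenin ligand, had 10.5, 9.83 and 11.1 CPM in mesentery, against 1.13, 2.08 and 1.54 CPM in epididymal libraries (log2 fold change 2.71, SE 0.30, adjusted p = 1.58e-07). The related Wnt2 averaged 13.6 ± 2.97 and 4.95 ± 1.11 CPM (log2 fold change 1.46, adjusted p = 0.000939), and Wnt4 2.46 and 0.731 CPM (log2 fold change 1.75, adjusted p = 0.00369). Every mesentery library was above every epididymal library for these 4 ligands, which was a condition for naming all but Wnt4. Among secreted modulators, Dkk3, a member of the Dickkopf family, had 153, 143 and 133 CPM in mesentery and 16.3, 17.3 and 16.2 CPM in epididymal libraries (log2 fold change 3.10, SE 0.32, adjusted p = 4.37e-08). Sfrp2, a frizzled-related Wnt modulator, was lower, at 9.39, 15.8 and 14.5 CPM in mesentery and 48.0, 80.4 and 55.2 CPM in epididymal libraries (log2 fold change -2.21, SE 0.28, adjusted p = 1.61e-06). Of 13 genes of the IGF system, 1 was higher and 1 lower, against the same shares of all genes. Igfbp5, an IGF-binding protein, had 266, 239 and 260 CPM in mesentery and 41.6, 66.5 and 47.7 CPM in epididymal libraries (log2 fold change 2.30, SE 0.24, adjusted p = 3.59e-08), while Igfbp3 was lower with an adjusted p of 0.00392 that became 0.104 without epididymal library 2.

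Markers of the Cd142 stromal population were higher in mesentery for 7 of 13 tested and lower for 1, against 1.21% and 1.37% of all genes. The list's median log2 fold change was 1.20. Fmo2, a flavin monooxygenase, had 1197, 918 and 692 CPM in mesentery libraries 1 to 3, against 287, 245 and 378 CPM in epididymal libraries 1 to 3 (log2 fold change 1.63, SE 0.28, adjusted p = 0.000294). The matrix protein vitrin, encoded by Vit, had 434, 449 and 395 CPM in mesentery, against 178, 185 and 193 CPM in epididymal libraries (log2 fold change 1.20, SE 0.20, adjusted p = 0.000135). Meox2, a homeobox factor of mesoderm, had 51.6, 24.5 and 27.7 CPM in mesentery, against 10.2, 6.63 and 5.62 CPM in epididymal libraries (log2 fold change 2.22, SE 0.34, adjusted p = 5.42e-05). Groups did not overlap for any of these, as the rule for naming them required. Clec11a, a secreted lectin that acts as a growth factor for osteogenic cells, averaged 38.2 ± 17.7 and 10.1 ± 1.98 CPM in mesentery and epididymal libraries (log2 fold change 1.92, adjusted p = 0.000506). Aldh1a2 is described with the retinoid genes, and the other two higher members were Spink2 and Abcg1, of which the first was not called without mesentery library 1 or epididymal library 1 or 2, and the second without mesentery library 2 or epididymal library 1 or 3. The gene that names the population, F3, had 1102, 870 and 848 CPM in mesentery and 482, 563 and 664 CPM in epididymal libraries and was not called (log2 fold change 0.72, SE 0.23, adjusted p = 0.0929). The lower member, Igfbp3, stood at 4.61, 3.86 and 4.49 CPM in mesentery and 7.93, 19.4 and 10.1 CPM in epididymal libraries, and its call was lost without epididymal library 2 (adjusted p = 0.104).

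Retinoid genes, which make, break down and sense retinoic acid, were higher for 4 and lower for 1 of 22 tested. The shares of all genes were 1.21% and 1.37%, and the list's median was 0.61. Aldh1a2, an enzyme of the last step of retinoic acid synthesis, had 86.4, 67.8 and 122 CPM in mesentery libraries 1 to 3, against 19.6, 14.0 and 12.1 CPM in epididymal libraries 1 to 3 (log2 fold change 2.60, SE 0.43, adjusted p = 0.000267). Its relative Aldh1a3 was lower, at 107, 103 and 82.8 CPM in mesentery and 201, 231 and 247 CPM in epididymal libraries (log2 fold change -1.21, SE 0.23, adjusted p = 0.000955). Aldh1a1, the most abundant of these dehydrogenases, was not called, at 317 to 408 CPM in mesentery and 366 to 458 CPM in epididymal libraries. Cyp26b1, which degrades retinoic acid, had 9.46, 11.5 and 15.2 CPM in mesentery and 0.496, 0.446 and 0.371 CPM in epididymal libraries (log2 fold change 4.78, SE 0.46, adjusted p = 9.61e-09). Adh7, a retinol-oxidising alcohol dehydrogenase, averaged 3.77 ± 0.895 and 0.576 ± 0.131 CPM (log2 fold change 2.70, adjusted p = 1.23e-05). The fourth higher member was Dhrs9, whose call was lost without mesentery library 3 or epididymal library 2.

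Of 21 adipogenic regulators, 1 was lower and 0 higher, against 1.37% and 1.21% of all genes, and DESeq2 called 1 higher. The lower one, Gata2, a factor that restrains adipocyte formation in mouse preadipocytes, had 0.314, 0.0891 and 0.121 CPM in mesentery libraries 1 to 3, against 1.49, 2.62 and 1.58 CPM in epididymal libraries 1 to 3 (log2 fold change -3.35, SE 0.62, adjusted p = 0.00043). Pparg, the master regulator of adipocytes, was at 10.6, 6.24 and 6.98 CPM in mesentery and 11.6, 11.3 and 14.3 CPM in epididymal libraries; the groups did not overlap and the difference was not called (log2 fold change -0.64, SE 0.49, adjusted p = 0.778). Of 15 committed preadipocyte markers 2 were lower, and DESeq2 called 4. Unadjusted p was under 0.05 for 9 of them, against 2788 of all 25705 genes tested. Groups did not overlap for 10 of them, against 18.9% of all genes, and their median log2 fold change was -0.57. Ggt5, a glutathione-cleaving enzyme, had 52.9, 54.0 and 62.6 CPM in mesentery and 133, 136 and 125 CPM in epididymal libraries (log2 fold change -1.21, SE 0.20, adjusted p = 0.00018). The fatty acid transporter Cd36 had 43.1, 24.4 and 22.7 CPM in mesentery and 185, 98.0 and 126 CPM in epididymal libraries with an adjusted p of 0.0428, which was 0.0578 to 0.191 without any single library of the 6. Of 22 adventitial progenitor markers, 1 was higher and 2 lower, Dpp4 and Dact2; without mesentery library 1 or 2 or epididymal library 2, and with DESeq2, Dact2 was not called and 1 was lower. The higher one was Wnt2. Dpp4, the surface peptidase that marks these progenitors, had 132, 201 and 185 CPM in mesentery and 388, 442 and 445 CPM in epididymal libraries (log2 fold change -1.30, SE 0.22, adjusted p = 0.000176), while Pi16 was at 421 to 499 and 428 to 796 CPM and was not called.

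Of 17 tested members of the list of steroid hormone receptors and enzymes, 4 were lower and 1 higher in mesentery. The shares of all genes were 1.37% and 1.21%, and the list's median log2 fold change was -0.17. Srd5a1, a 5-alpha reductase that converts testosterone to dihydrotestosterone, had 4.34, 5.20 and 4.95 CPM in mesentery libraries 1 to 3, against 17.2, 23.9 and 20.7 CPM in epididymal libraries 1 to 3 (log2 fold change -2.10, SE 0.20, adjusted p = 8.02e-09). Hsd11b1, which regenerates active glucocorticoid, had 194, 115 and 108 CPM in mesentery, against 430, 335 and 440 CPM in epididymal libraries (log2 fold change -1.53, SE 0.27, adjusted p = 0.000385). With Sult1e1, named above, these enzymes were lower in all 3 mesentery libraries, as the rule for naming them required. Star, which carries cholesterol into mitochondria, had 8.81, 5.64 and 13.1 CPM in mesentery and 23.1, 19.8 and 28.9 CPM in epididymal libraries, and its adjusted p of 0.00439 became 0.0628 without mesentery library 2. The fourth lower member was Srd5a3, a relative of Srd5a1, and without mesentery library 2 only 2 of the list were lower, Srd5a1 and Hsd11b1. Srd5a3 was also lost without mesentery library 1 or epididymal library 1 or 2. The single higher call, Akr1c14, was lost without any single library but mesentery library 3. Esr1, the oestrogen receptor alpha, was at 28.1 to 32.7 and 54.4 to 61.6 CPM in mesentery and epididymal libraries, and its log2 fold change of -0.95 (adjusted p = 0.00614) missed the fold limit, which it reached without epididymal library 3 (adjusted p = 0.0138).

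Of 35 fibrillar matrix genes tested, 1 was higher and 2 were lower, against 1.21% and 1.37% of all genes. An unadjusted p under 0.05 in edgeR was found for 9 of them, against 2788 of all 25705 genes tested. The lower genes were chains of collagen VI that form beaded filaments. Col6a5 had 24.3, 23.1 and 37.0 CPM in mesentery libraries 1 to 3, against 292, 373 and 315 CPM in epididymal libraries 1 to 3 (log2 fold change -3.54, SE 0.28, adjusted p = 1.72e-10). Col6a6 had 36.6, 36.6 and 60.1 CPM in mesentery, against 184, 184 and 147 CPM in epididymal libraries (log2 fold change -1.95, SE 0.31, adjusted p = 0.000102). Tnc, the glycoprotein tenascin C, was higher at 20.6, 72.0 and 24.5 CPM in mesentery and 2.87, 3.06 and 4.79 CPM in epididymal libraries. Mesentery library 2 was the highest for it, and its adjusted p of 0.0111 was 0.0942 without that library, and 0.0738 and 0.0789 without epididymal library 1 and 2.

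Of 28 basement membrane genes 4 were lower and 0 higher, against 1.37% and 1.21% of all genes. The list's median was -0.45, and 7 members were lower without mesentery library 3. Lamc3, a laminin gamma chain, averaged 0.526 ± 0.286 CPM in mesentery and 9.87 ± 1.69 CPM in epididymal libraries (log2 fold change -4.18, SE 0.41, adjusted p = 2.05e-08). The neighbouring X-linked collagen IV genes were both lower: Col4a5 had 55.6, 82.5 and 95.2 CPM in mesentery, against 199, 247 and 278 CPM in epididymal libraries, and Col4a6 had 7.89, 5.47 and 8.77 CPM against 34.9, 54.9 and 46.9 CPM. Their log2 fold changes were -1.63 (adjusted p = 2.18e-05) and -2.63 (adjusted p = 9.76e-08). Smoc2, a matricellular calcium-binding protein, had 381, 535 and 820 CPM in mesentery and 1417, 1428 and 1343 CPM in epididymal libraries (log2 fold change -1.27, SE 0.26, adjusted p = 0.00293). Mesentery library 3 was the nearest to the epididymal libraries for Smoc2 and Col4a5.

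Of 30 matrix proteases and inhibitors, 3 were higher and 5 lower in mesentery, against 1.21% and 1.37% of all genes. Mmp3, the metalloproteinase stromelysin 1, had 598, 359 and 313 CPM in mesentery libraries 1 to 3, against 53.3, 30.9 and 53.6 CPM in epididymal libraries 1 to 3 (log2 fold change 3.20, SE 0.32, adjusted p = 2.75e-08). The membrane-bound Mmp16 averaged 11.6 ± 1.82 and 2.49 ± 0.163 CPM (log2 fold change 2.22, adjusted p = 2.53e-07), and Adamtsl3, a matrix protein related to the ADAMTS proteases, 201 ± 28.0 and 80.5 ± 12.6 CPM (log2 fold change 1.32, adjusted p = 0.00125). The lower members included proteases that cleave aggregating proteoglycans. Adamts15 had 32.8, 26.8 and 33.7 CPM in mesentery and 117, 102 and 85.8 CPM in epididymal libraries (log2 fold change -1.71, SE 0.19, adjusted p = 1.72e-07), and Adamts5 had 337, 352 and 399 CPM, against 800, 785 and 908 CPM (log2 fold change -1.20, SE 0.22, adjusted p = 0.000595). Adamts16, the metalloproteinase Mmp27 and the inhibitor Timp4 completed the lower members, with log2 fold changes of -1.87, -2.02 and -3.01.

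Among genes that support lymphocytes, 2 of 23 were higher in mesentery and 0 lower, against 1.21% and 1.37% of all genes. DESeq2 called 1 of the list lower. Il33, an alarmin cytokine of stromal nuclei, had 401, 334 and 304 CPM in mesentery libraries 1 to 3, against 54.9, 71.6 and 61.1 CPM in epididymal libraries 1 to 3 (log2 fold change 2.47, SE 0.25, adjusted p = 2.59e-08). Il7, the survival factor of lymphocytes, had 10.9, 8.26 and 12.1 CPM in mesentery, against 2.41, 1.60 and 1.51 CPM in epididymal libraries (log2 fold change 2.50, SE 0.38, adjusted p = 5.45e-05). Other immune lists held no call in edgeR. For scale, 2788 of all 25705 genes tested had an unadjusted p under 0.05 in that test. None of 25 chemokines and myeloid growth factors was called, with 5 at an unadjusted p under 0.05 and 3 called by DESeq2. Kitl, a growth factor for cells with the receptor Kit, had an adjusted p of 0.000566 and missed the limit on fold change with -0.99 on the log2 scale. None was called of 20 complement genes (3 at an unadjusted p under 0.05, 0 by DESeq2), of 28 interferon-stimulated and antigen presentation genes (6 and 0), of 22 immediate early genes (0 and 0) or of 14 proliferation genes (2 and 0). Csf1, the macrophage growth factor, had 99.6, 182 and 337 CPM in mesentery and 319, 337 and 276 CPM in epididymal libraries, and the groups overlapped (log2 fold change -0.59, SE 0.35, adjusted p = 0.625). Cxcl12, a chemokine of lymphocyte and stem cell niches, had 303, 156 and 245 CPM in mesentery and 378, 408 and 314 CPM in epididymal libraries (log2 fold change -0.64, SE 0.37, adjusted p = 0.613). 

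Axon guidance and lipid mediator genes held a few more calls. Sema3a, a secreted repellent of axons, had 1.35, 1.48 and 0.546 CPM in mesentery libraries 1 to 3, against 8.11, 7.81 and 10.1 CPM in epididymal libraries 1 to 3 (log2 fold change -2.92, SE 0.37, adjusted p = 2.48e-06). The related Sema3e averaged 7.60 ± 2.20 and 22.4 ± 3.38 CPM, and its adjusted p of 0.00439 became 0.0612 without mesentery library 1. Of 26 members tested, 3 were higher and 2 lower, against 1.21% and 1.37% of all genes. The higher ones included the neurotrophin Bdnf and the ephrin Efna5. None was called higher without mesentery library 1 or epididymal library 3, and 1 without mesentery library 3 or epididymal library 1. Bdnf had 3.14, 1.31 and 1.43 CPM in mesentery and 0.496, 0.0297 and 0.247 CPM in epididymal libraries, with an adjusted p of 0.0214 that became 0.214 without mesentery library 1, and 0.187 and 0.0976 without epididymal library 2 and 3. Of 21 prostaglandin and lipid mediator genes, 1 was higher and 3 lower, against the same shares of all genes. Hpgd, which inactivates prostaglandins, had 139, 99.9 and 126 CPM in mesentery and 286, 288 and 316 CPM in epididymal libraries (log2 fold change -1.28, SE 0.23, adjusted p = 0.000493), and Ptgfr, the prostaglandin F receptor, 25.8, 21.3 and 21.5 CPM against 3.93, 7.55 and 7.33 CPM (log2 fold change 1.86, SE 0.36, adjusted p = 0.00107). The secreted phospholipase Pla2g2e, lower at 1.31 to 2.003 CPM in mesentery and 4.14 to 7.72 CPM in epididymal libraries, and Pla1a made up the lower members, and the call of Pla1a was lost without any single library but mesentery library 3.

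**Figure D4:**
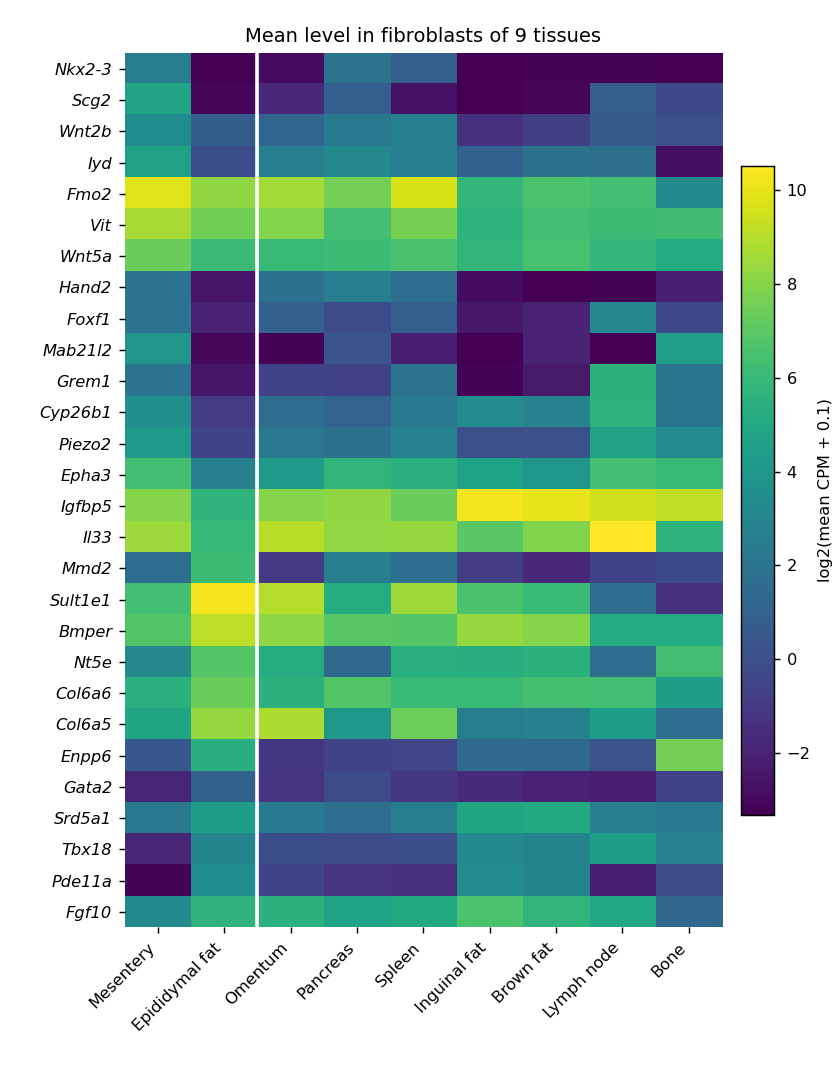
Mean level of 28 genes as log2(CPM + 0.1) in fibroblasts of 9 tissues, with mesentery and epididymal fat left of the white line; colour runs from dark (low) to yellow (high), and groups hold 3 libraries, or 2 for pancreas and spleen. Nkx2-3 and Scg2 are highest in mesentery, Mmd2 and Sult1e1 highest in epididymal fat, and Tbx18 lowest in mesentery among the 9 tissues.

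Set beside fibroblasts of the 7 other tissues, as a description without a test, the depots stood at the extremes for some genes and not for others. Mean levels were higher in lymph node than in mesentery for Foxf1 (8.56 against 3.74 CPM) and Gli1 (6.82 against 4.93 CPM). The same held for Hhip (33.8 against 11.7 CPM) and Grem1 (47.7 against 3.83 CPM). It also held for Lepr (1460 against 31.5 CPM) and Il33 (1470 against 346 CPM). Hand2 averaged 5.91 CPM in pancreas and 3.80 CPM in mesentery. Nkx2-3 averaged 5.62 ± 1.48 CPM in mesentery, against 3.82 ± 2.05 CPM in pancreas, 1.72 ± 0.283 CPM in spleen, at most 0.0364 CPM in the other tissues and 0 in epididymal fat. Mesentery and pancreas did not differ beyond their spread. Scg2 averaged 27.3 ± 13.2 CPM in mesentery and at most 1.69 CPM elsewhere. Iyd averaged 25.3 ± 6.05 CPM in mesentery, with the pancreas next at 8.99 ± 0.518 CPM, and Mab21l2 14.6 ± 1.17 CPM, with bone above it at 23.7 ± 1.72 CPM. Mmd2 averaged 72.5 ± 14.3 CPM in epididymal fat and at most 5.92 CPM elsewhere, and Sult1e1 averaged 1296 ± 33.8 CPM there, with the omentum next at 507 ± 82.9 CPM. Tbx18 was low in each visceral tissue except epididymal fat. Tbx18 averaged 0.185 CPM in mesentery, 7.56 CPM in epididymal fat and 0.807 to 0.909 CPM in omentum, pancreas and spleen, against 9.64 and 7.63 CPM in inguinal and brown fat. Pde11a averaged 0.0101 CPM in mesentery and 10.7 CPM in epididymal fat, with 10.04 CPM in inguinal fat, 7.45 CPM in brown fat and at most 0.804 CPM in the other tissues. Srd5a1 averaged 4.83 CPM in mesentery and 20.6 CPM in epididymal fat, against 28.8 CPM in inguinal fat, 33.6 CPM in brown fat and 3.09 to 6.01 CPM in the remaining tissues.

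Mesothelial cells, which line the serous surface and were sorted from the same depots as PDGFRA-negative cells, gave another pair of groups for the same depot difference. The difference between cell types, that is the fibroblast log2 fold change minus the mesothelial one, was called for 527 of 25705 genes (2.05%), 225 above 0 (0.875%) and 302 below 0 (1.17%); its median over all genes was 0.160. Of the 661 genes called in fibroblasts, 207 were also called for the difference between cell types. For 454 it was not called, which does not show that the cell types are alike. Mesothelial libraries of the mesentery carried acinar RNA too, at 9629, 2493 and 267 CPM, against 62.3, 101 and 45.2 CPM in epididymal mesothelial libraries. Without the 3 mesentery libraries of at least 2000 acinar CPM, 1 of fibroblasts and 2 of mesothelial cells, 219 genes were called.

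Nkx2-3 was absent from epididymal cells of both kinds and present in both mesentery groups, at 5.62 CPM in fibroblasts and 4.28 ± 1.21 CPM in mesothelial cells. Mab21l2 likewise averaged 18.9 ± 1.18 CPM in mesentery mesothelial cells and 0.0741 ± 0.0691 CPM in epididymal ones. Hand2, in contrast, differed in fibroblasts and was at 7.85 ± 1.53 and 6.31 ± 2.55 CPM in mesentery and epididymal mesothelial cells (difference between cell types 5.29, SE 0.63, adjusted p = 4.96e-07). Nr2f1 was lower in mesentery fibroblasts and stood at 3.23 CPM in mesentery and 0.282 CPM in epididymal mesothelial cells (difference between cell types -6.54, SE 0.65, adjusted p = 4.2e-08). Wnt5a was higher in mesentery in both cell types and more so in mesothelial cells, at 137 ± 9.36 CPM against 18.96 ± 1.86 CPM in epididymal mesothelial cells (difference -1.62, SE 0.30, adjusted p = 0.00124). Lepr, at 5.25 and 7.41 CPM in mesentery and epididymal mesothelial cells, gave a difference of 5.16 (SE 0.42, adjusted p = 8.82e-10), and Il33, at 361 and 356 CPM, gave 2.45 (SE 0.34, adjusted p = 1.41e-05). Art3, an ADP-ribosyltransferase, moved in opposite directions, at 23.0 ± 4.15 and 6.68 ± 1.64 CPM in mesentery and epididymal fibroblasts and at 1.58 and 27.0 CPM in the mesothelial cells (difference 5.88, SE 0.50, adjusted p = 2.85e-09). Epyc, the small proteoglycan epiphycan, averaged 4.85 and 28.2 CPM in the fibroblasts and 2.13 and 0.0956 CPM in the mesothelial cells, mesentery first (difference -7.03, SE 1.13, adjusted p = 0.000169). Col6a5, at 19.8 CPM in mesentery and 426 CPM in epididymal mesothelial cells, was low in the mesentery in both cell types.

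**Figure D5:**
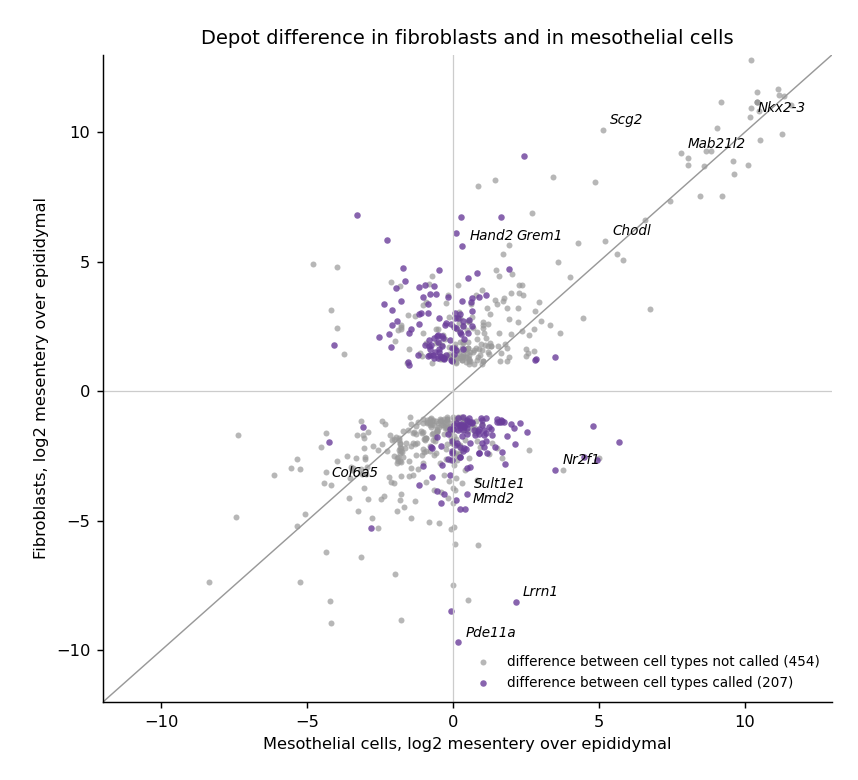
Log2 fold change of mesentery over epididymal fat in fibroblasts (vertical axis) and in mesothelial cells (horizontal axis) for the 661 genes called in fibroblasts; the diagonal marks equal differences. Purple points are the 207 genes whose difference between cell types was called and grey points the other 454. Nkx2-3 and Mab21l2 lie near the diagonal at the upper right, and Hand2, Lrrn1 and Pde11a near a mesothelial difference of 0 or on the other side of it.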

How the data were processed

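Polyadenylated RNA of sorted stromal cells was sequenced in 34 libraries of 12 groups. The authors deposited raw counts per gene for 51826 Ensembl identifiers, made from uniquely aligned reads per the file headers; GRCm38 and Salmon are named in the submitters' processing notes, and how these fit together, the annotation release and the strand setting are not given in the sources used here. Whole-number counts were used as deposited. All 34 libraries entered 1 fit with a coefficient per group in edgeR 4.0.16 (R 4.3.3), with TMM scaling, a filter on low counts (filterByExpr, minimum count 10), and the robust quasi-likelihood test; p-values were adjusted by Benjamini-Hochberg over 25705 genes. Calls needed an adjusted p under 0.05 and a difference of 1 or more, up or down, on the log2 scale. CPM are counts relative to the TMM-scaled library total; sums over marker lists use unscaled totals. Intervals and floors (3 counts over a group) cover counting error only. Genes were named by a rule. It took the 12 largest called changes in each direction at 10 CPM or more in the higher group and without overlap of libraries. Marker lists of other cell types and accession, clone, Gm or Rik symbols were left out. From each list it took up to 4 called members, also without overlap of libraries. For the largest changes and these list members, absence of overlap was thus a condition and is no further support. The 6 largest differences between cell types in each direction and a few fixed genes were named too. Members of short counts and the genes after the pancreatic ones were added from their values. The members and lists were chosen with earlier results of these data known. The alternatives were DESeq2 1.42.0 and its size factors, no filter, other sets of libraries, the replicate number as a block, leaving out each library, and 3 treatments of acinar RNA. Total counts ranged from 28.7 to 42.3 M.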

Additional observations from a re-analysis of the deposited data

Results flagged for a closer look

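For 50 of the genes named above, the depot difference in fibroblasts departed from that in mesothelial cells by the test of the difference itself (edgeR, adjusted p under 0.05 and at least 1 on the log2 scale). The values that follow are the mesentery-minus-epididymal log2 difference in fibroblasts less that in mesothelial cells.

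Of the genes higher in mesentery fibroblasts, those whose mesothelial estimate was also above 0, but smaller, had differences of 2.66 for Abcc9, 2.44 for Dkk3, 2.72 for Epha3, 2.19 for Gli1, 5.29 for Hand2, 5.10 for Hand2os1, 2.07 for Igfbp5, 2.45 for Il33, 1.84 for Il7, 2.80 for Piezo2 and 2.37 for Wnt2b. Those whose mesothelial estimate was below 0 had 4.60 for Adh7, 5.88 for Art3, 4.15 for Bdnf, 6.51 for Cyp26b1, 4.22 for Hlx, 4.10 for Hoxa10, 2.82 for Kcnj8, 5.16 for Lepr, 4.42 for Meox2 and 4.54 for Phex. In this second set the receptors and enzymes Lepr, Cyp26b1 and Art3 stood furthest apart, with mesothelial log2 differences of -0.49, -1.73 and -4.09. Some of these genes were near absent from mesothelial cells. Cyp26b1 averaged 0.147 and 0.507 CPM in mesentery and epididymal mesothelial cells, and Adh7 0.105 and 0.430 CPM. The sign of such mesothelial estimates is uncertain.

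Of the genes lower in mesentery fibroblasts, those with a mesothelial estimate also below 0 had -3.66 for Amy1, -3.31 for Cnmd, -1.46 for Col4a5, -2.45 for Col4a6, -2.44 for Nt5e, -1.48 for Sfrp2 and -2.45 for Tbx18. Those with a mesothelial estimate above 0 had -2.45 for Adamts15, -4.80 for Amph, -3.57 for Bmp5, -4.04 for Bmper, -2.64 for Cldn15, -1.64 for Dpp4, -7.03 for Epyc, -3.26 for Fgf10, -3.26 for Hpgd, -2.40 for Igfbp3, -4.28 for Lamc3, -10.29 for Lrrn1, -4.96 for Mmd2, -6.54 for Nr2f1, -9.87 for Pde11a, -3.51 for Sema3a, -4.09 for Sema3e, -2.61 for Star and -4.44 for Sult1e1. Among them the axon repellent Sema3e, the proteoglycan gene Epyc and the nuclear receptor gene Nr2f1 had mesothelial log2 differences of 2.53, 4.49 and 3.50. Others were low in mesothelial cells of both depots, so the sign of their mesothelial estimate is uncertain. Mesentery and epididymal mesothelial means were 0.158 and 0.123 CPM for Pde11a and 0.470 and 0.114 CPM for Lrrn1. They were 0.567 and 0.319 CPM for Fgf10, 0.886 and 0.729 CPM for Amph, and 0.789 and 0.581 CPM for Mmd2.

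Differences of -2.19 for Adamtsl3, 2.31 for Col6a6 and -1.62 for Wnt5a belonged to genes whose depot difference had the same sign and was larger in mesothelial cells, with mesothelial log2 differences of 3.50 for Adamtsl3, -4.26 for Col6a6 and 2.85 for Wnt5a.

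Several of these calls rested on single libraries. Adjusted p-values were above 0.05 for Il7 (0.067 to 0.128) without any library but mesentery fibroblast library 2 and epididymal fibroblast library 1, for Tbx18 (0.0534 to 0.111), Sfrp2 (0.0504 to 0.115) and Gli1 (0.0597 to 0.0947) without any of 5 or 6 of the 12 libraries, for Cnmd (0.0536 to 0.162) without any of 4, for Bdnf without mesentery fibroblast library 1 (0.0587) or epididymal fibroblast library 2 (0.0508), for Pde11a without mesentery mesothelial library 2 (0.342) and for Fgf10 without mesentery mesothelial library 1 (0.118). Il7 was also not called by edgeR with DESeq2 size factors (adjusted p = 0.0611). Without the mesentery libraries of at least 2000 acinar CPM, Bdnf, Cnmd, Gli1, Il7, Pde11a, Sfrp2 and Tbx18 were again not called. Nor were Amy1, Col4a5, Col6a6, Dkk3, Epha3, Hoxa10 and Lrrn1. Only library 3 of the mesentery mesothelial cells stays in that fit, so its calls carry little weight.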

How the results depend on the processing

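The 661 calls between the depots were 660 with DESeq2 size factors, 707 with DESeq2, 760 with only the 6 libraries compared, 694 with the 25 fibroblast libraries, 657 without the acinar marker genes and 634 without the 27 genes of which the scaled pancreas library gives at least 50%. Without a filter on low counts they were 1036, of which 575 were lower in mesentery. Leaving out 1 library gave 457 to 680 calls, with 202 to 283 higher in mesentery and 245 to 397 lower. The 527 calls for the difference between cell types were 816 with DESeq2, 488 of them below 0, and 989 without a filter, 444 above and 545 below 0. Leaving out 1 library gave 392 to 617, 175 to 223 above and 214 to 394 below 0.

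A planned removal of mesentery libraries of at least 1000 acinar CPM gave no value, because all 3 mesentery fibroblast libraries pass that limit. A limit of 2000 CPM, chosen after seeing the data, left 473 depot calls and 219 calls for the difference between cell types, 75 above and 144 below 0; fewer libraries entered that fit. Wt1, with a log2 fold change of 0.01, changed sign with DESeq2 size factors and with DESeq2 (both -0.02), without a filter (-0.0063), with only the 6 libraries (-0.0012), with the fibroblast libraries (-0.0045), at the 2000 CPM limit (-0.04), without mesentery library 1 (-0.02) and without epididymal library 2 (-0.22), with a range of -0.22 to 0.18 when leaving out 1 library; it was called in none of these.

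Whether replicate numbers pair the libraries is not settled. Same-numbered fibroblast libraries had correlations of 0.052, -0.211 and -0.236 in their deviations from the group means. With 3 libraries a group these deviations are tied to one another, so the values cannot exclude pairing. Fibroblast and mesothelial libraries were not compared in this way. With the replicate number as a block, 667 depot calls and 529 calls for the difference between cell types were made, and 571 and 497 with only the libraries of the groups compared. In that last setting the adjusted p of some named genes passed 0.05, with 0.124 for Wnt4, 0.0712 for Emx2, 0.0756 for Hand1, 0.134 for Isl1, 0.0899 for Fgf9, 0.0613 for Igfbp3 and 0.0596 for the difference of Hoxa10 between cell types. With the block over all libraries it was 0.0613 for Cd36. At 28.8 to 41.1 M counts, members such as Hand1, Prdm6, Hlx and Emx2 rest on under 2 CPM on the higher side, and their fold changes are imprecise.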
